A study of Mus musculus with 6 samples.

Results

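The 10 genes described here encode parts of the vesicle route that carries molecules across the endothelium: the caveolar coat genes Cav1, Cav2, Cavin1 and Cavin2, the neck and scission genes Ehd2, Pacsin2 and Dnm2, the diaphragm gene Plvap, the transcytosis suppressor Mfsd2a and the receptor gene Lrp1. They were chosen by name, with earlier results of these data known, and make up 10 of the 54532 genes in the table of all genes. All 10 passed the filter on low values, an FPKM (read fragments per kilobase of gene length, scaled for library depth) of at least 0.5 in at least 3 libraries. RNA was sequenced from primary brain microvascular endothelial cells (BMVECs) of wild-type C57BL/6J mice. The cells grew out of brain vessel fragments, under puromycin at first and then to confluence without it. There were 3 libraries of cells given processed DEVD mIL-36β, an IL-1 family cytokine, at 100 ng/ml for 24 h, and 3 libraries of untreated cells. No vehicle or time is given for the untreated cells, so time in culture and IL-36β cannot be told apart. Nothing in the labels ties each library to its own animal or culture, so p-values measure only the spread between these libraries.

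Caveolae are flask-shaped pits of the plasma membrane. Caveolins sit in the membrane and cavins coat it from the inside, while EHD2 and pacsin 2 shape and hold the neck and dynamin 2 can cut it to free a vesicle. Endothelium of most organs has many caveolae, whereas brain endothelium keeps few and carries little cargo by this route. In brain endothelium MFSD2A, a lipid transporter, is known to suppress caveolar transcytosis, and PLVAP, which builds the diaphragms of caveolae and fenestrae, is low once the blood-brain barrier has formed.

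The Cav2 and Cav1 genes are neighbours on the plus strand of chromosome 6 (GRCm38), with Cav2 at chr6:17281185-17289115, Cav1 at chr6:17306335-17341452 and 17219 bases between them. The 250 bases upstream of the start of Cav1, Cav2 and Cavin2 are shown, because these 3 genes had their lowest levels in the same 2 libraries, a choice made after their values were seen. The sequences are from the RefSeq promoter table (GRCm38.p6), which held 9 of the 10 genes. All 3 are on the plus strand, at chr6:17306085-17306334 for Cav1, chr6:17280935-17281184 for Cav2 and chr1:51288876-51289125 for Cavin2. Capitals mark matches to the GC box GGGCGG, the CCAAT box CCAAT or the TATA box TATAAA on either strand.
Cav1: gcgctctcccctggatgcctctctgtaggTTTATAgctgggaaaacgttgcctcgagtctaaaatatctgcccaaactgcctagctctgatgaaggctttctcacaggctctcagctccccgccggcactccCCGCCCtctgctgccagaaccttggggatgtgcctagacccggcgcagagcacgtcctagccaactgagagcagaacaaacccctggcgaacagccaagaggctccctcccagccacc
Cav2: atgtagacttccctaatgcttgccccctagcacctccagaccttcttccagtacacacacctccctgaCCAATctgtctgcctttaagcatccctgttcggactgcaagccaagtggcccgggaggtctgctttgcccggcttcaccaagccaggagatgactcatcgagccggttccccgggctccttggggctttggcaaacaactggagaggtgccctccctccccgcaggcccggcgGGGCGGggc
Cavin2: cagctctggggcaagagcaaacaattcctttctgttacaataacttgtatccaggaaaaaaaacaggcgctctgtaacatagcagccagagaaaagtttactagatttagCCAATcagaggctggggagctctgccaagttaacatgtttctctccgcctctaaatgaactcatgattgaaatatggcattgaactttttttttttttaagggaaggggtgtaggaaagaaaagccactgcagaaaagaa
The Cav1 window held a GC box and a TATA box, both on the minus strand, the Cav2 window a CCAAT box and a GC box, and the Cavin2 window a CCAAT box alone. Of all 32851 RefSeq windows of this length, 32.7% held the GC box, 33.8% the CCAAT box and 12.4% the TATA box on either strand. A site for NF-κB, the transcription factor through which IL-1 family receptors signal, was looked for by its consensus and matched in none of the 9 windows, against 3.90% of all windows. A match or its absence describes the letters of the window only. The GC content was 59.6% for Cav1, 62.0% for Cav2 and 40.4% for Cavin2.

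The libraries held 15180389 to 19544689 reads assigned to genes. As a check of the treatment 4 genes were read. They were chosen with earlier results of these data known, so their rise is no independent support. Transcripts of Csf3, which encodes the growth factor G-CSF, averaged 30.4 ± 13.0 FPKM with IL-36β and 1.25 ± 0.636 FPKM in untreated cells (SD, n = 3 each, as for every mean here), a rise in limma (adjusted p = 0.0179). Il6, Icam1 and Nfkbia, an inflammatory cytokine, an adhesion molecule and an NF-κB inhibitor, also rose (limma adjusted p = 0.00633, 0.0284 and 0.0275). With any 1 library left out Il6 still passed in limma (adjusted p = 0.0115 to 0.0495) and Nfkbia did not (adjusted p = 0.0665 to 0.178). Icam1 passed only without untreated 3 (limma adjusted p = 0.0258). Csf3 did not pass without IL-36β 2 or without untreated 2 (limma adjusted p = 0.0838 and 0.0529). The endothelial label held: the 10 endothelial markers summed to 2476 to 3080 FPKM with IL-36β and 2381 to 2747 FPKM untreated, and the endothelial cadherin gene Cdh5 averaged 974 ± 135 FPKM with IL-36β and 956 ± 97.1 FPKM untreated. Of these 10 markers 0 passed in limma, 7 having fold changes above 1 and 3 below, while DESeq2 called Cldn5, a tight junction gene that was higher with IL-36β (adjusted p = 0.0222). Markers of pericytes and smooth muscle were also present, with 0 of 11 at 0 and sums of 377 to 830 FPKM with IL-36β and 424 to 1401 FPKM untreated. Summed markers of fibroblasts, astrocytes, microglia, neurons and oligodendrocytes stayed at or below 7.01 FPKM in every library. In these bulk libraries fewer cells of a type and less RNA per cell cannot be told apart. The library names carry letters whose meaning the labels do not give: A, D and E for IL-36β 1, 2 and 3, and A, B and D for untreated 1, 2 and 3. Earlier results of these data showed that libraries A and B differ from D and E in many genes. At a limma adjusted p under 0.05 there were 220, 1.74% of the 12618 genes tested. The sets were picked from these same data, so this count is no independent support for them. In fits with the set as a term, intervals may therefore be too narrow and p-values too low. Values within these sets stand beside some results.

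Setting IL-36β against untreated cells asks how BMVECs respond to this cytokine. Of the 10 genes of the caveolar and transcytosis route, 0 passed the test (limma on log2(FPKM + 0.5), Benjamini-Hochberg adjusted p under 0.05), against 0.182% of the 12618 genes tested, 23 genes. At an unadjusted p under 0.05 there were also 0 of 10, against 10.4% of all genes. In none of the 10 did the libraries of the groups separate without overlap, against 16.2% of all genes. Fitted to the whole reads recovered from the FPKM, edgeR called 0 of 10 against 0.293% of all genes, and DESeq2 called 0 of 10 against 2.10%. Read against these shares, a count of 0 among 10 genes is near the background and does not set the route apart from other genes. The fold changes were small, with log2 values between -0.46 for Cavin2 and 0.12 for Pacsin2 and a median of -0.11, against 0.0023 over all genes tested; 6 were below 0. Each of the 10 confidence intervals (95%) included no change. On the log2(FPKM + 0.5) scale the interval left out a 2-fold difference in either direction for 8 of the 10 genes. Cavin2 and Plvap were the exceptions, and for 5 genes it also left out a 1.5-fold difference. For the low genes Mfsd2a and Lrp1 folds and intervals are understated on this scale. Mfsd2a had a lower bound of 0.508, and log2 fold changes of -0.32 in limma, -0.50 in edgeR and -0.51 in DESeq2. For Lrp1 the lower bound was 0.626. A 2-fold fall in the FPKM of Mfsd2a or of Lrp1 can therefore not be excluded. None of the 10 is among the 660 genes of the authors' deposited table of IL-36β against control. That table holds only 660 of 54532 genes, so 0 of 10 does not set the 10 genes apart. The largest of the unadjusted p-values deposited there is 0.05. That table also has columns of 4 libraries without a label, so its samples may differ from those used here.

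**Figure D1:**
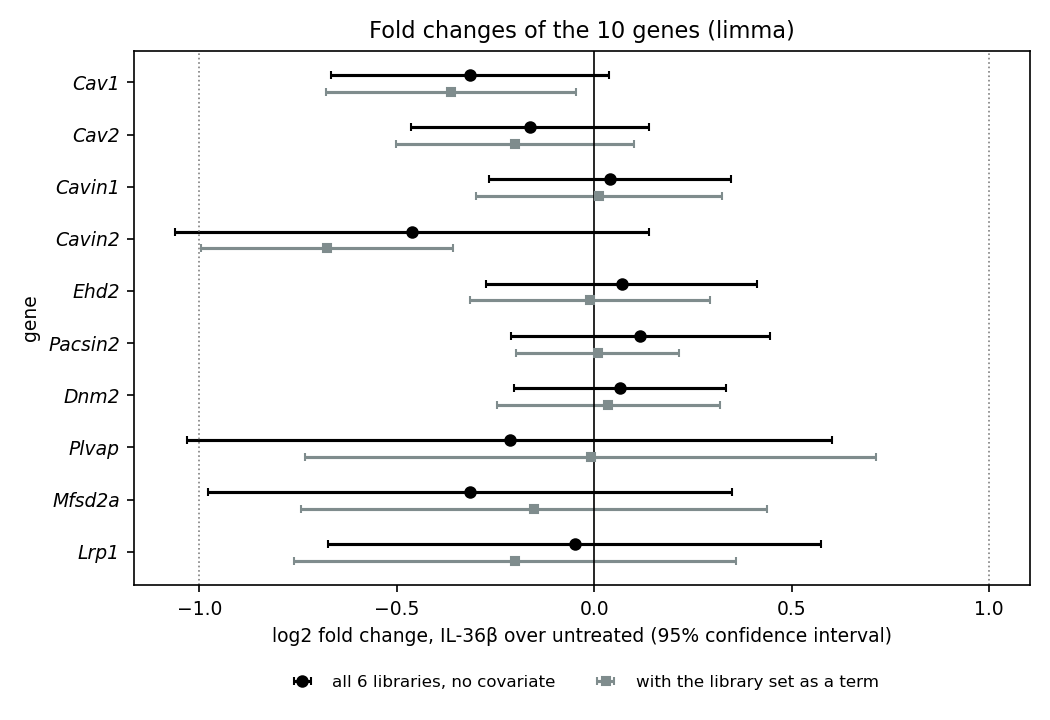
Log2 fold change of each gene, IL-36β over untreated (horizontal axis, log2(FPKM + 0.5) scale), with its 95% confidence interval from limma (n = 3 libraries per group), as black circles, with the fit that has the library set as a term as grey squares and dotted lines at a 2-fold change. Among the circles Cavin2 lies lowest at -0.46 and Pacsin2 highest at 0.12 and every interval crosses 0, while the squares of Cav1 and Cavin2 have intervals below 0.

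Levels of the 10 genes spanned a wide range that was much the same with IL-36β and untreated. On the FPKM scale, which is per gene length, the order of the means over all 6 libraries was Cav1, Cavin1, Cav2, Ehd2, Pacsin2, Dnm2, Cavin2, Plvap, Mfsd2a and Lrp1. Neighbours in this order were separated in both groups except for 3 pairs. The library ranges of Pacsin2 and Dnm2, and of Mfsd2a and Lrp1, overlapped in both groups, and those of Dnm2 and Cavin2 overlapped in untreated cells only. Cav1 ranked 18 among the 12618 genes tested by mean FPKM, Cavin1 114 and Cav2 174, while Mfsd2a ranked 10521 and Lrp1 11102. The remaining coat gene, Cavin2, ranked 1810, at a mean of 28.0 FPKM over all 6 libraries. Transcripts of Cav1, Cavin1 and Cav2 were thus abundant, and those of Mfsd2a scarce, with IL-36β and untreated alike.

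**Figure D2:**
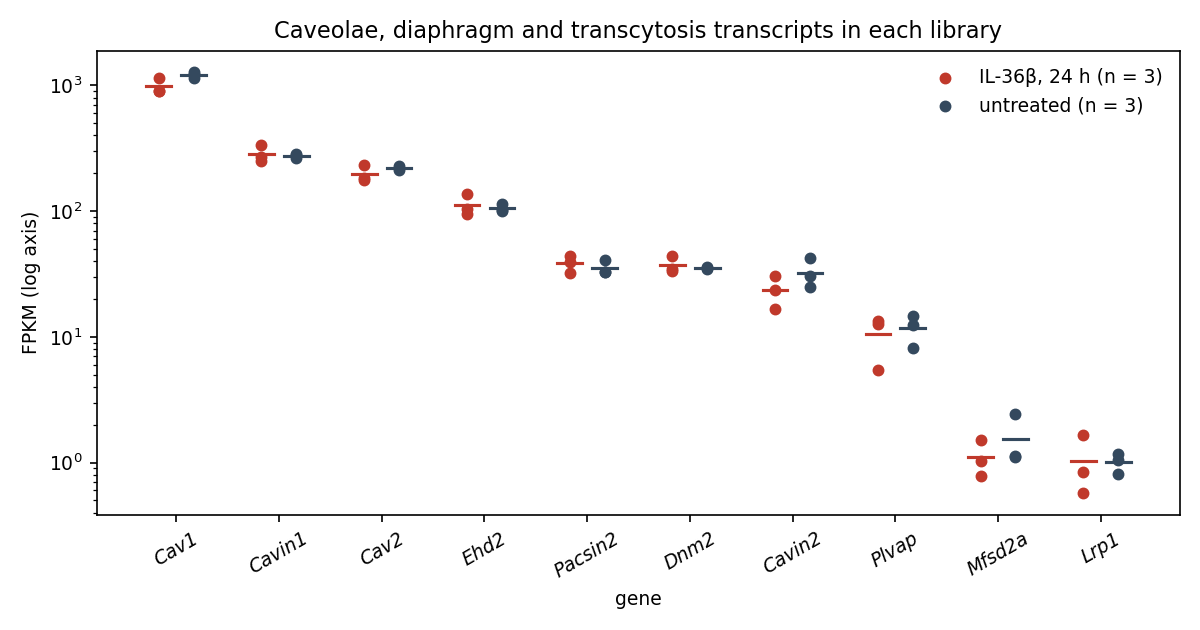
FPKM of the 10 genes in each of the 6 libraries (log axis), IL-36β libraries left of untreated ones, with 1 point per library and a bar at the mean. Cav1 averages 985 FPKM with IL-36β and 1218 FPKM untreated, Mfsd2a and Lrp1 lie near 1 FPKM, and the groups overlap for every gene.

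Cav1 encodes caveolin-1, the membrane protein without which endothelial caveolae do not form. It had 901, 1148 and 907 FPKM in IL-36β libraries 1 to 3, against 1144, 1230 and 1282 FPKM in untreated libraries 1 to 3. IL-36β 1 and 3 lay below every untreated library, while IL-36β 2 lay just above the lowest untreated one, so the groups overlapped narrowly. The means were 985 ± 141 FPKM with IL-36β and 1218 ± 69.4 FPKM untreated, a fold of 0.804 with an interval of 0.630 to 1.03 that did not pass the test (limma adjusted p = 0.533, unadjusted p = 0.0735). These values rest on 48150 to 64990 reads per library with IL-36β and 63999 to 85795 untreated, so counting error is small beside the spread between libraries. Within libraries A and B the fold was 0.760 and 0.796 within D and E. Here and below, each such fold has only 1 library on one side. That library is IL-36β 1 within A and B, and untreated 3 within D and E. In a fit that holds the library set as a term it was 0.778 with an interval of 0.625 to 0.968 (limma adjusted p = 0.316, unadjusted p = 0.0303). DESeq2 gave an unadjusted p of 0.0200 and an adjusted p of 0.312.

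Cav2 encodes caveolin-2, which joins caveolin-1 in the coat and depends on it to reach the surface. It had 176, 231 and 183 FPKM in IL-36β libraries 1 to 3, against 227, 210 and 218 FPKM in untreated libraries 1 to 3. As for Cav1, IL-36β 1 and 3 were lowest, but here IL-36β 2 was the highest of all 6. The means were 197 ± 30.3 FPKM with IL-36β and 219 ± 8.27 FPKM untreated, a fold of 0.893 with an interval of 0.725 to 1.10 (limma adjusted p = 0.680). The fold was 0.805 within A and B and 0.941 within D and E. The ratio of Cav1 to Cav2, in FPKM, was 5.13, 4.96 and 4.97 in IL-36β libraries 1 to 3 and 5.04, 5.85 and 5.87 in untreated libraries 1 to 3. Untreated 1 had a ratio as low as the IL-36β libraries, and the other untreated libraries lay above them.

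Cavin1 encodes cavin-1, the coat protein that caveolae need in all tissues (chr11:100956733-100970887, minus strand). It had 270, 251 and 334 FPKM in IL-36β libraries 1 to 3, against 277, 266 and 283 FPKM in untreated libraries 1 to 3. IL-36β held both the highest and the lowest library, with all untreated libraries between them. The fold was 1.03 with an interval of 0.831 to 1.27 (limma adjusted p = 0.931), and its direction turned without IL-36β 3, where the log2 fold change was -0.080.

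Cavin2 encodes cavin-2, which binds phosphatidylserine and helps bend the caveolar membrane (chr1:51289126-51302960, plus strand). It had 16.5, 30.5 and 23.6 FPKM in IL-36β libraries 1 to 3, against 24.8, 30.2 and 42.1 FPKM in untreated libraries 1 to 3. IL-36β 1 and 3 were the lowest and untreated 3 the highest, while IL-36β 2 lay within the untreated range. The means were 23.5 ± 6.96 FPKM with IL-36β and 32.4 ± 8.87 FPKM untreated, a fold of 0.726 with an interval of 0.479 to 1.10 (limma adjusted p = 0.578, unadjusted p = 0.112). Among the 10 genes this was the fold farthest below 1. Within libraries A and B the fold was 0.611 and within D and E 0.640. The fit with a term for the set gave a fold of 0.625 with an interval of 0.501 to 0.780 (limma adjusted p = 0.104, unadjusted p = 0.00160), a fit that called 0 of the 10 genes against 0.808% of all genes. DESeq2 gave an adjusted p of 0.458 and an unadjusted p of 0.0457. Acta2, the smooth muscle actin gene and the highest of the pericyte and smooth muscle markers, had 340, 772 and 498 FPKM in IL-36β libraries 1 to 3 and 378, 675 and 1323 FPKM in untreated libraries 1 to 3. Of the 8 measured markers in that list 6 had fold changes below 1 and 2, Des and Tagln, above 1. In limma 0 of the 8 passed, while DESeq2 called Cnn1 and Myh11, both lower with IL-36β (adjusted p = 0.0152 and 0.00447). Acta2 was likewise lowest in IL-36β 1 and highest in untreated 3. Cnn1 and Myh11 were instead lowest in IL-36β 3, with Cnn1 highest in untreated 3 and Myh11 highest in untreated 2. The part of these markers in the Cavin2 values was not tested.

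**Figure D3:**
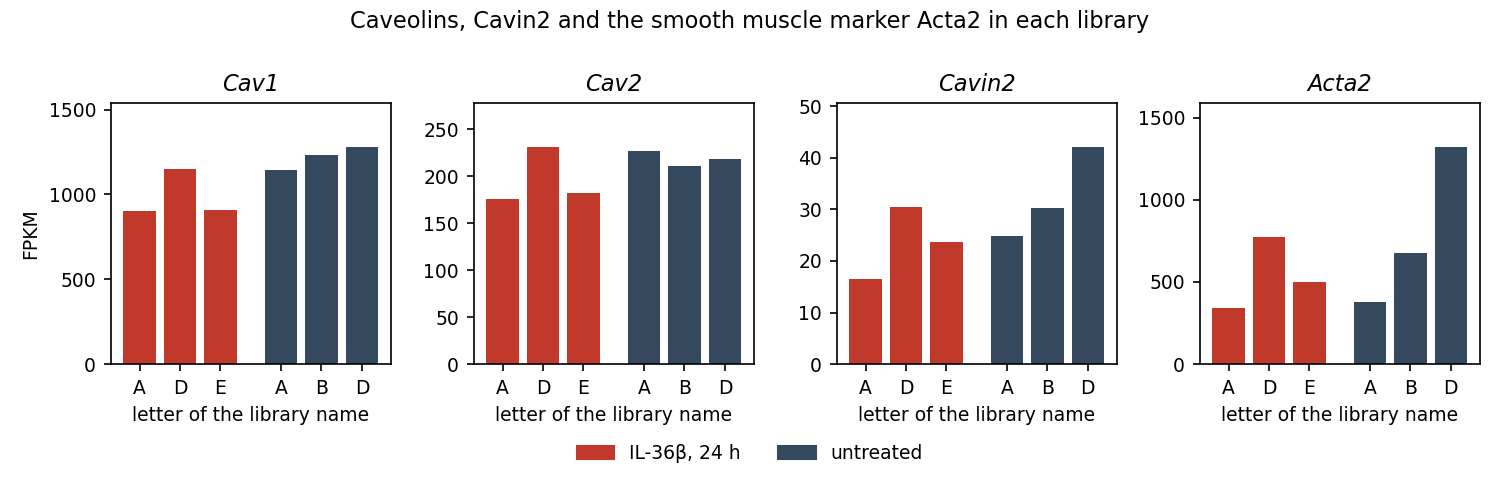
FPKM of Cav1, Cav2, Cavin2 and the smooth muscle marker Acta2 by library, labelled by the letter of the library name, with IL-36β libraries left of untreated ones and 1 bar per library. Cav1, Cav2 and Cavin2 are lowest in IL-36β A and E, and Acta2 and Cavin2 are lowest in IL-36β A and highest in untreated D.

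The 3 genes of the neck and of scission had fold changes a little above 1, and each was highest in IL-36β 3. Ehd2 encodes an ATPase that rings the neck and anchors caveolae at the surface (chr7:15946958-15967567, minus strand). It had 95.01, 103 and 137 FPKM in IL-36β libraries 1 to 3, against 103, 100.1 and 113 FPKM in untreated libraries 1 to 3. IL-36β 1 was the lowest and IL-36β 3 the highest, and the fold was 1.05 with an interval of 0.827 to 1.33 (limma adjusted p = 0.884).

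Pacsin2 encodes a membrane-bending F-BAR protein of the caveolar neck (chr15:83375607-83464606, minus strand). It had 32.5, 39.5 and 43.9 FPKM in IL-36β libraries 1 to 3, against 32.8, 33.1 and 40.6 FPKM in untreated libraries 1 to 3. The groups overlapped through most of their range, with a fold of 1.08 and an interval of 0.864 to 1.36 (limma adjusted p = 0.789). Dnm2 encodes dynamin 2, the GTPase that severs vesicle necks, in clathrin-coated pits as well as caveolae (chr9:21424908-21507759, plus strand). It had 34.6, 33.7 and 43.6 FPKM in IL-36β libraries 1 to 3, against 34.7, 35.5 and 35.97 FPKM in untreated libraries 1 to 3. The untreated libraries lay close together and 2 of the IL-36β libraries lay just below them, with IL-36β 3 above; the fold was 1.05 with an interval of 0.868 to 1.26 (limma adjusted p = 0.859). Dnm2 shares 207 exon bases with Tmed1 on the opposite strand, and whether reads were counted by strand is not stated in the labels, so some of its reads may belong to Tmed1. Without IL-36β 3 the log2 fold changes of Ehd2 and Dnm2 turned to -0.084 and -0.050, so their direction rested on that library. Cavin1 and Lrp1 were also highest in IL-36β 3, which makes 5 of the 10 genes.

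Replicates of the abundant genes differed more among the IL-36β libraries than among the untreated ones, as a description with no test. The coefficient of variation was 14.3% with IL-36β and 5.70% untreated for Cav1, 15.4% and 3.79% for Cav2, 15.3% and 3.25% for Cavin1, and 14.7% and 1.82% for Dnm2. It was 19.7% and 6.47% for Ehd2, while Pacsin2 differed less, at 14.9% and 12.4%. The spread of other genes was not compared. Cavin2, at 29.6% with IL-36β and 27.4% untreated, varied about as much in both groups. Mfsd2a went the other way, with 33.8% with IL-36β and 49.3% untreated.

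Plvap encodes the protein that forms the diaphragms of caveolae and of fenestrae and is used as a sign of a leaky, non-barrier endothelium (chr8:71497765-71511752, minus strand). It had 12.6, 5.45 and 13.3 FPKM in IL-36β libraries 1 to 3, against 12.5, 14.5 and 8.08 FPKM in untreated libraries 1 to 3. The lowest library of each group was the one lettered D, IL-36β 2 and untreated 3, and the other 4 lay close together across the groups. The means were 10.5 ± 4.35 FPKM with IL-36β and 11.7 ± 3.30 FPKM untreated, a fold of 0.862 with an interval of 0.489 to 1.52 (limma adjusted p = 0.847). Without IL-36β 2 the log2 fold change turned to 0.18. The interval leaves in a fall of up to 2.04-fold and a rise of up to 1.52-fold.

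Mfsd2a, the lipid transporter gene that restrains caveolar transcytosis in brain endothelium (chr4:122946850-122961188, minus strand), was near the bottom of the range. It had 1.52, 1.03 and 0.782 FPKM in IL-36β libraries 1 to 3, against 1.12, 2.44 and 1.10 FPKM in untreated libraries 1 to 3. Untreated 2 stood above the other 5, which ran together across the groups. These values come from 53, 38 and 32 reads with IL-36β and 41, 111 and 38 reads untreated, so counting error adds to the spread. The means were 1.11 ± 0.375 FPKM with IL-36β and 1.55 ± 0.765 FPKM untreated, a fold of 0.804 with an interval of 0.508 to 1.27 (limma adjusted p = 0.722). Cav1 was 594, 1117 and 1160 times the FPKM of Mfsd2a in IL-36β libraries 1 to 3 and 1020 times, 505 times and 1167 times in untreated libraries 1 to 3. The ratio overlapped between the groups.

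Lrp1 encodes a large endocytic receptor that binds many ligands, among them amyloid-β and α2-macroglobulin, and has been studied for export of amyloid-β from brain (chr10:127538161-127621148, minus strand). It had 0.567, 0.848 and 1.65 FPKM in IL-36β libraries 1 to 3, against 1.05, 0.816 and 1.18 FPKM in untreated libraries 1 to 3. IL-36β held both the lowest and the highest library. Because its exons span 17717 bases, these low levels still rest on 156 to 532 reads per library with IL-36β and 293 to 321 untreated. The means were 1.02 ± 0.562 FPKM with IL-36β and 1.02 ± 0.184 FPKM untreated, with a fold of 0.966 and an interval of 0.626 to 1.49 (limma adjusted p = 0.964).

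**Figure D4:**
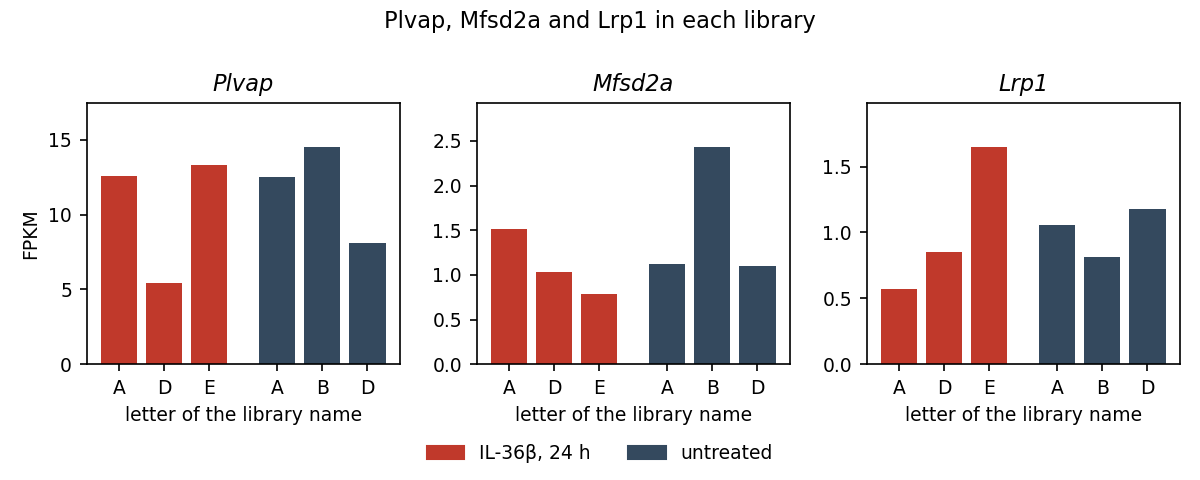
FPKM of Plvap, Mfsd2a and Lrp1 in each library, labelled by the letter of the library name, with IL-36β libraries left of untreated ones and 1 bar per library. Plvap is lowest in both libraries lettered D, Mfsd2a is highest in untreated B at 2.44 FPKM, and Lrp1 is highest in IL-36β E at 1.65 FPKM.

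Libraries lettered A and D exist in both groups, and the 2 same-letter differences can be read without a test. In 7 of the 10 genes IL-36β was lower in both letters, against 29.2% of all genes tested, and in 0 of 10 it was higher in both, against 28.3%. These pairs leave out untreated 2 and IL-36β 3, the library in which 5 of the 10 genes were highest. The exceptions were Cav2, Plvap and Mfsd2a. Cavin2 was 0.667 times its untreated level in letter A and 0.723 times in letter D, and Cav1 was 0.787 times and 0.896 times. For Cavin1, Ehd2, Pacsin2 and Dnm2 the 8 such ratios lay between 0.886 and 0.999. Lrp1 was 0.539 times its untreated level in letter A and 0.720 times in letter D. The labels do not say that same-letter libraries share an animal or culture.

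Of 12 paralogs of the caveolar genes and raft genes, 7 were measured and 0 passed the test in limma, against 0.182% of all genes; their median log2 fold change was 0.12. At an unadjusted p under 0.05, 2 of the 7 were higher with IL-36β and 1 was lower, against 10.4% of all genes. The groups did not overlap in 2 of the 7, Ehd1 and Ehd3, against 16.2% of all genes. Ehd1, an endocytic recycling ATPase related to EHD2, had 74.0, 63.7 and 75.3 FPKM in IL-36β libraries 1 to 3, against 46.8, 50.1 and 52.1 FPKM in untreated libraries 1 to 3. All IL-36β libraries lay above all untreated ones, a fold of 1.42 with an interval of 1.21 to 1.68 (limma adjusted p = 0.146, edgeR adjusted p = 0.108). DESeq2 on the recovered reads called Ehd1 with an adjusted p of 0.00408. The authors' deposited table gives it a log2 fold change of 0.39 and an adjusted p of 0.999. Cavin3, another cavin of the endothelial coat, had 78.4, 92.0 and 139 FPKM in IL-36β libraries 1 to 3, against 61.8, 54.4 and 85.5 FPKM in untreated libraries 1 to 3. Its groups overlapped at untreated 3, with a fold of 1.51 and an interval of 1.02 to 2.24 (limma adjusted p = 0.460). Ehd3, another recycling ATPase, was lower in every IL-36β library, at 7.48, 7.82 and 8.73 FPKM against 9.72, 9.25 and 11.1 FPKM untreated, a fold of 0.809 (limma adjusted p = 0.405). Flot1 and Flot2, which encode the flotillins of membrane rafts, averaged 19.7 ± 5.28 and 27.7 ± 3.16 FPKM with IL-36β and 16.1 ± 5.38 and 26.7 ± 1.36 FPKM untreated. Ehd4, a further EHD ATPase, averaged 164 ± 21.1 FPKM with IL-36β and 150 ± 12.3 FPKM untreated, and Pacsin3, a relative of Pacsin2, averaged 1.23 ± 0.375 FPKM with IL-36β and 1.53 ± 0.428 FPKM untreated. The muscle genes Cav3 and Cavin4 had 1 and 9 reads in all IL-36β libraries together and 0 and 16 reads in all untreated libraries together.

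Other steps of vesicle traffic were read from further lists, each to be set against the 0.182% of all genes that passed in limma. Of 17 clathrin coat and adaptor genes all were measured and 0 passed in limma, a median of -0.048 on the log2 scale. At an unadjusted p under 0.05 there were 2, both lower, against 10.4% of all genes. The clathrin light chain gene Clta averaged 117 ± 16.0 FPKM with IL-36β and 105 ± 7.78 FPKM untreated, and the AP-2 adaptor gene Ap2m1 averaged 92.1 ± 4.59 FPKM with IL-36β and 91.9 ± 5.88 FPKM untreated. Of 14 vesicle docking and recycling genes 0 passed and 0 had an unadjusted p under 0.05 in limma, with a median of 0.034. Rab7, a GTPase of late endosomes, averaged 144 ± 8.44 FPKM with IL-36β and 141 ± 3.47 FPKM untreated, and Vamp3, a fusion protein of recycling vesicles, averaged 92.5 ± 7.58 FPKM with IL-36β and 94.8 ± 0.100 FPKM untreated. Of 8 caveolin binding partners 0 passed in limma, with a median of 0.018 and 1 higher at an unadjusted p under 0.05, again against 10.4% of all genes. That gene was Src, the kinase that phosphorylates caveolin-1, at 42.7 ± 2.46 FPKM with IL-36β and 36.5 ± 2.55 FPKM untreated (limma adjusted p = 0.471). Flna, which encodes filamin A, an actin crosslinker that binds caveolin-1, averaged 183 ± 51.2 FPKM with IL-36β and 188 ± 64.7 FPKM untreated.

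Of 17 transcytosis receptors and partners 14 were measured and 0 passed in limma, against 0.182% of all genes, with a median log2 fold change of -0.14. At an unadjusted p under 0.05 there were 2, both lower, against 10.4% of all genes. In 3 of the 14 the groups did not overlap, all of them lower with IL-36β, against 16.2% of all genes. Acvrl1, which encodes the endothelial receptor ALK1 that also takes up LDL, averaged 297 ± 20.9 FPKM with IL-36β and 296 ± 13.9 FPKM untreated. Lrp10, a receptor of the LDL receptor family, averaged 54.5 ± 8.42 FPKM with IL-36β and 48.6 ± 2.88 FPKM untreated. Igf2r and Lrp2, named after their values were seen, had the lowest unadjusted p-values of the list. Igf2r encodes the mannose 6-phosphate receptor, which sorts lysosomal enzymes and clears IGF2. It had 12.6, 12.4 and 11.9 FPKM in IL-36β libraries 1 to 3, against 19.3, 19.9 and 18.4 FPKM in untreated libraries 1 to 3. The groups were far apart relative to their spread, a fold of 0.649 with an interval of 0.568 to 0.742 that just missed the threshold (limma adjusted p = 0.0511). It fell in edgeR (adjusted p = 0.0301), in DESeq2 (adjusted p = 1.74e-06) and with the library set as a term (limma adjusted p = 0.0334). It did not pass in limma with a block by title number or by library letter (adjusted p = 0.123 and 0.108), nor with any 1 library left out (adjusted p = 0.115 to 0.307). The authors' deposited table gives Igf2r a log2 fold change of -0.37 and an adjusted p of 0.999. Lrp2, which encodes the receptor megalin, had 0.610, 0.102 and 0.102 FPKM in IL-36β libraries 1 to 3, against 1.67, 3.14 and 0.861 FPKM in untreated libraries 1 to 3. Every IL-36β library was below every untreated one, on 217 reads in all with IL-36β and 1738 untreated, and the fold of 0.334 did not pass the test (limma adjusted p = 0.240).

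**Figure D5:**
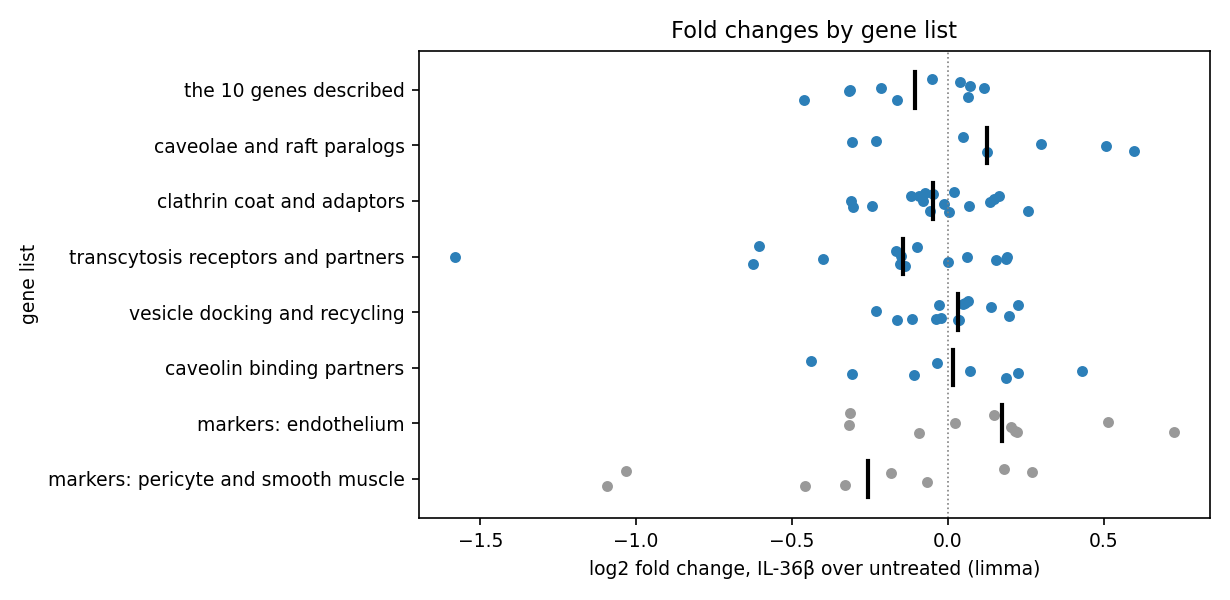
Log2 fold changes, IL-36β over untreated, of the measured genes of each list (1 point per gene, limma on log2(FPKM + 0.5)), with a black bar at the median of each list, marker lists in grey and a dotted line at the median of all genes tested. Lrp2 is the lowest point, and the median of the 10 genes is -0.11.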

How the data were processed

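Stranded mRNA libraries of BMVECs, 3 with IL-36β and 3 untreated, were grouped by title, and table columns were matched by library name. Tools named in the submitters' processing notes, without roles or settings, are fastp, StringTie, HISAT2 2.05, DESeq2 1.38.3 and featureCounts 1.50-p3, with the build GRCm38. The deposited table of all genes holds FPKM, made by the authors, for 54532 genes, and gene lengths. For 660 genes they also deposited raw counts, counts divided by a size factor (a signal scale), log2 fold changes and p-values. The smallest adjusted p in the authors' deposited table is 0.999. Not used here were 8 other columns, belonging to 4 libraries without a label.

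Multiplying FPKM by gene length and a divisor per library gave whole reads in 100% of values, within 0.01, and these equal the deposited counts in all 660 genes. The divisor follows size factors, not library totals. Replicates were not duplicates (chi-square per degree of freedom 11.0 to 40.5). For a gene of 1 kb, 15.4 to 20.3 reads make 1 FPKM.

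The main test, limma 3.58.1 in R 4.3.3, used log2(FPKM + 0.5) with a trended prior and was two-sided. It covered 12618 genes with FPKM of at least 0.5 in at least 3 libraries, and p-values were Benjamini-Hochberg adjusted over all of them, with a threshold of 0.05. Folds and 95% intervals share that log2 scale, so changes of low genes are understated. Alternatives were other pseudocounts, filters, scalings and weights, blocks by title number or library letter, the library set as a term, each library left out, and edgeR 4.0.16 and DESeq2 1.42.0 on the recovered reads. DESeq2 gave adjusted p-values for 12372 genes. The procedure was tested on simulated data. Over all genes it called 11.2% of the genes changed 1.5-fold and 60.1% of those changed 2-fold. At a mean FPKM of at least 10 these shares were 17% and 89%, so many 1.5-fold changes would be missed. Over all genes the 95% interval held the simulated fold for 88.5% of genes changed 2-fold and 72.6% of those changed 4-fold. At a mean FPKM of at least 10 it did so for 94.5% and 94.3%. Samples with the same title number correlated at 0.207, -0.141 and 0.211 in their deviations from the group means, so the numbers were not taken to pair them.

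The 10 genes, lists, tests and alternatives were chosen with earlier results of these data known. All 10 genes were named. From each other list the text names genes past the threshold, or else the 2 with the highest mean FPKM, and all measured caveolar paralogs as values; exceptions were chosen after their values were seen. Coordinates and lengths of the 10 genes equal GENCODE M21 (GRCm38).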

Additional observations from a re-analysis of the deposited data

How the results depend on the processing

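None of the 10 genes passed the threshold in limma or under any of the 20 alternatives, edgeR and DESeq2 included, and their smallest adjusted p was 0.104, for Cavin2 with the library set as a term. Of the 200 values of these genes under the alternatives, 178 kept the direction. The turned values are given as log2 fold changes. With quantile normalization they were -0.13 for Cavin1, -0.076 for Ehd2, -0.0029 for Dnm2 and 0.0039 for Lrp1, and with TPM -0.045 for Cavin1, -0.015 for Ehd2 and -0.018 for Dnm2. Lrp1 was 0.0055 in edgeR and 0.0014 in DESeq2, and Ehd2 was -0.0096 with the set term. Leaving out each library in turn gave -0.080 to 0.13 for Cavin1, -0.084 to 0.18 for Ehd2, -0.050 to 0.13 for Dnm2, -0.45 to 0.18 for Plvap and -0.33 to 0.18 for Lrp1. The median log2 fold change of all genes was -0.080 with TPM and -0.0033 with quantile normalization, against 0.0023 in the main fit. The cause of the turned values was not tested.

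With the replicate block by library letter the turned values were -0.11 for Cavin1, -0.12 for Ehd2, -0.027 for Pacsin2, -0.048 for Dnm2 and 0.12 for Mfsd2a, and this block called 78 genes in all. The block by title number called 13, and neither numbers nor letters are known to pair libraries.

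Over all genes, limma called 23. The count was 0 of 23998 with no filter on low values (1751 at an unadjusted p under 0.05), 15 with TPM, 102 with the set term, 37 in edgeR, 260 in DESeq2 and 2 to 8 with 1 library left out. The shallowest of the 10 genes is Mfsd2a, at 32 to 111 reads per library.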

Other observations

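The ratios of the cavins to each other, in FPKM, are a description with no test. Cavin1 was 3.44, 2.73 and 2.40 times Cavin3 in IL-36β libraries 1 to 3, against 4.48, 4.88 and 3.31 times in untreated libraries 1 to 3, so only IL-36β 1 reached into the untreated range. Cavin1 was 16.3, 8.24 and 14.2 times Cavin2 in IL-36β libraries 1 to 3, against 11.2, 8.78 and 6.72 times in untreated libraries 1 to 3. Here IL-36β 1 and 3 lay above every untreated library, and IL-36β 2 lay among them. Both ratios were picked after the values of these genes were seen.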
